A study of Homo sapiens and Mus musculus with 12 samples.

Results

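The RNA that sedimented with heavy polysomes was compared between 2 states of Yumm1.7, a mouse melanoma cell line known to carry a mutant Braf. The states are labelled P and S, and positive differences mean higher in S. The comparison used 2 of the 12 RNA sequencing libraries of the series, 1 polysome library of each state. Of the 12711 genes listed for this line, 10492 had a mean of at least 1 TPM over its 6 libraries and were compared. TPM, a transcript's relative abundance, is read density per length of transcript, scaled to a fixed total in each library, so it allows levels of different genes to be compared. Per the series description, parental cells and their drug-tolerant persisters, which survive a drug without lasting resistance, were profiled. Nothing in the labels ties the letters to these states, and no drug, dose or time is named. Both states also gave an input library, from RNA before the gradient, and a monosome library, from the single-ribosome peak and lighter fractions. The polysome libraries came from the last fractions of the sucrose gradient.

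An mRNA in use is read by several ribosomes at once, and the more ribosomes it carries the faster it sediments. The bottom of the gradient therefore holds mRNAs with many ribosomes, along with anything else that is equally dense. The composition of that fraction depends both on which mRNAs a cell contains and on how fully each is loaded. Mitochondria make their own small set of proteins from their own genome with their own ribosomes, apart from the cytosolic ones.

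Each state has 1 polysome library, so no difference below has a replicate check, and no test, p-value or standard error is given. TPM does not keep read depth, so the depth is unknown. TPM is also relative, so the amount of RNA and the number of ribosomes in a fraction are not known. In bulk RNA, fewer cells of a type and less RNA per cell cannot be told apart. Listed genes summed to 94.4% of 1000000 TPM in the P polysome library and 84.5% in the S polysome library. The labelled cell type could be checked on few genes. Of 14 melanocyte genes, 5 had a row and 2 passed the level needed for comparison, the glycoprotein gene Gpnmb (529.9 TPM in P polysomes and 187 in S polysomes) and the lineage factor Mitf (5.14 and 0.429). Mlana, Pmel and Rab27a had means below 1 TPM, and the other melanocyte genes are not analysed here.

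The most general difference was one of evenness. The P polysome library was spread over many genes, with 348 genes holding 50% of its TPM, whereas 72 genes held 50% of the S polysome library. The 10 highest genes took 5.58% of TPM in P polysomes and 24.7% in S polysomes, and the 100 highest took 28.2% and 55.8%. P polysomes stood apart from the other 5 libraries in this respect. The number of genes holding 50% of TPM was 144 in P input, 56 in P monosomes, 64 in S input and 62 in S monosomes. There were 7163 genes above 10 TPM in P polysomes and 3850 in S polysomes, while the number above 1000 TPM was closer, at 169 and 138.

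**Figure D1:**
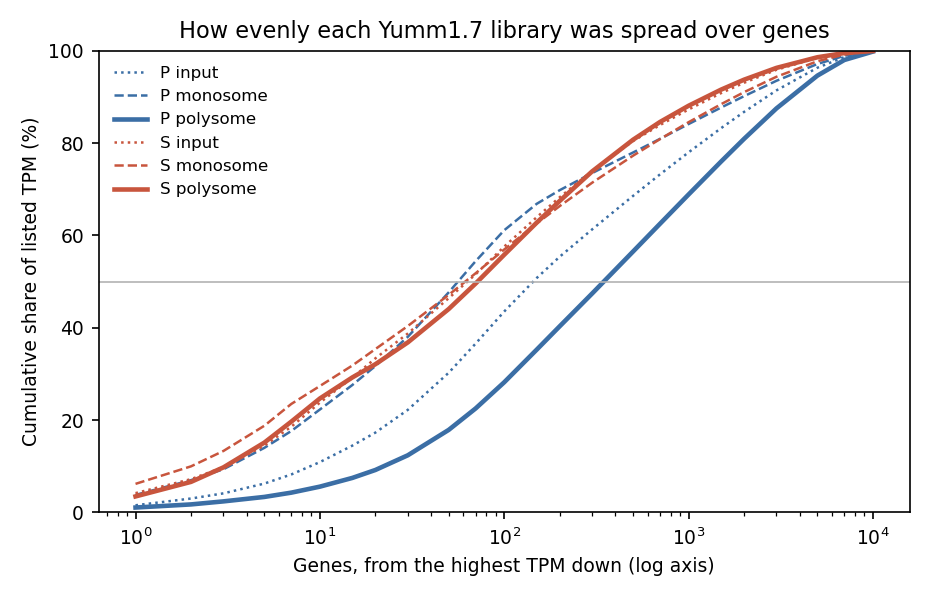
Cumulative share of listed TPM (vertical axis, percent) against the number of genes counted from the highest TPM down (log axis), with 1 line per Yumm1.7 library. The P polysome line runs lowest and crosses 50% at 348 genes, while the S polysome line crosses it at 72 genes and runs close to the S input line.

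The median gene was 2.89-fold lower in S polysomes than in P polysomes on the log2(TPM + 1) scale, a shift of -1.53. In the input libraries this shift was -0.94, and in the monosome libraries -0.21. Differences are therefore given in log2 relative to the median gene unless the text says "as deposited". Counted that way, 2528 genes (24.1% of those compared) were at least 2-fold higher in S and 2358 (22.5%) at least 2-fold lower. As deposited, 554 were at least 2-fold higher and 6827 at least 2-fold lower. These shares are the background for each gene group below. A gene below 1 TPM in every P library passed the filter only through its S libraries and could not count as lower. A group whose median lies between 0 and 1.53 above the median gene had a median at or below the P level as deposited. The as-deposited median is given beside each such group.

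Differences varied with the expression level of the gene. Of the 140 genes whose mean reached 1000 TPM, 80.0% were at least 2-fold higher and 1.43% lower (median 1.72). Among the 896 genes from 100 to 1000 TPM the shares were 43.9% and 15.6% (median 0.71). The 1892 genes from 30 to 100 TPM were balanced, at 26.1% and 25.8% (median 0.04). For the 2894 genes from 10 to 30 TPM they were 18.7% and 29.9% (median -0.26), and for the 2987 genes from 3 to 10 TPM 17.1% and 25.6% (median -0.29). The lowest band, 1683 genes from 1 to 3 TPM, had more higher than lower genes, at 28.4% and 5.70% (median 0.39). With 1 TPM added and the median gene subtracted, a gene near 0 TPM in both libraries counts as higher. The shares of this band therefore cannot be set against those of the other bands. As deposited, the medians were -0.82 from 100 to 1000 TPM, -1.50 from 30 to 100 TPM and -1.14 from 1 to 3 TPM.

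The abundant genes were partly the same in both states. Of the 100 highest genes in each polysome library, 66 were shared. The highest gene of P polysomes was Lgals1, which encodes the sugar-binding protein galectin-1 (10022 TPM in P and 21122 in S). Next in P were the elongation factor Eef1a1 (6372 TPM), the MHC class I light chain B2m (6212) and the mitochondrial mt-Co1 (4592). Others among its first 12 were Ppia, S100a6, the actin regulator Pfn1, Tpt1 and the ribosomal protein genes Rpl19, Rps15, Rps14 and Rps9. In S polysomes, 8 of the first 12 genes were mitochondrially encoded mRNAs. The others among them were Lgals1, the calcium-binding protein S100a6 (4408 TPM in P and 17288 in S), the myosin light chain Myl6 (3092 and 8824) and the ferritin light chain Ftl1 (2005 and 8235).

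Mitochondrially encoded mRNAs made the widest difference in composition among the gene lists used here. The 13 protein-coding genes of the mitochondrial genome, each counted here as an mRNA, took 1.84% of listed TPM in P polysomes and 21.8% in S polysomes. All 13 were at least 2-fold higher in S, with a median of 5.00 (3.47 as deposited) and a range from 2.45 to 6.21. In the input libraries, where their share went from 9.64% to 19.9%, 9 of 13 were at least 2-fold higher and the median was 1.30. In the monosome libraries the share was 15.2% in P and 21.5% in S, but the median difference was 0.05. Members went both ways there, from -2.95 for mt-Co1 (16240 TPM in P and 1815 in S) to 3.04 for mt-Nd4 (4712 and 33422). The share in P polysomes was thus the low one among the 6 libraries, while all 3 S libraries lay between 19.9% and 21.8%.

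The mRNAs are grouped here by the complex they serve, and the ranges of these complexes overlapped. Complex IV, or cytochrome c oxidase, passes electrons to oxygen, and its 3 mRNAs summed to 7442 TPM in P polysomes and 82511 in S polysomes. Within it, mt-Co2 had 1436 TPM in P against 29315 in S, mt-Co3 1415 and 26622, and mt-Co1, the most abundant one in P, 4592 and 26575. In monosomes these 3 mRNAs were lower in S instead, at -0.87 for mt-Co2, -1.69 for mt-Co3 and -2.95 for mt-Co1. The ATP synthase mRNAs mt-Atp6 (1196 and 22898) and mt-Atp8 (591 and 12785) had differences of 5.79 and 5.96. For mt-Cytb, the only mitochondrially encoded subunit of complex III, the levels were 2628 and 22372 TPM.

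Complex I, or NADH dehydrogenase, showed the widest spread. Its 7 mRNAs ranged from 2.45 for mt-Nd5 (625 TPM in P and 1184 in S) to 6.21 for mt-Nd3 (148 and 3801). Between them were mt-Nd1 (1468 and 16246) and mt-Nd4 (1177 and 13288), and mt-Nd6 (983 and 4315), which is the only one read from the other strand of the mitochondrial genome. Summed, complex I mRNAs had 5521 TPM in P and 43844 in S, which is less in S than the 3 mRNAs of complex IV. The 2 mitochondrial ribosomal RNAs, mt-Rnr1 (55.8 and 835 TPM) and mt-Rnr2 (38.4 and 309), were also higher in S polysomes, with differences of 5.41 and 4.51. They took 0.135% of the S library and 0.00998% of the P library after poly-T selection. In monosomes their shares were 1.24% in S and 1.15% in P. The part of mitochondria or mitochondrial ribosomes that sediment with heavy polysomes was not tested.

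**Figure D2:**
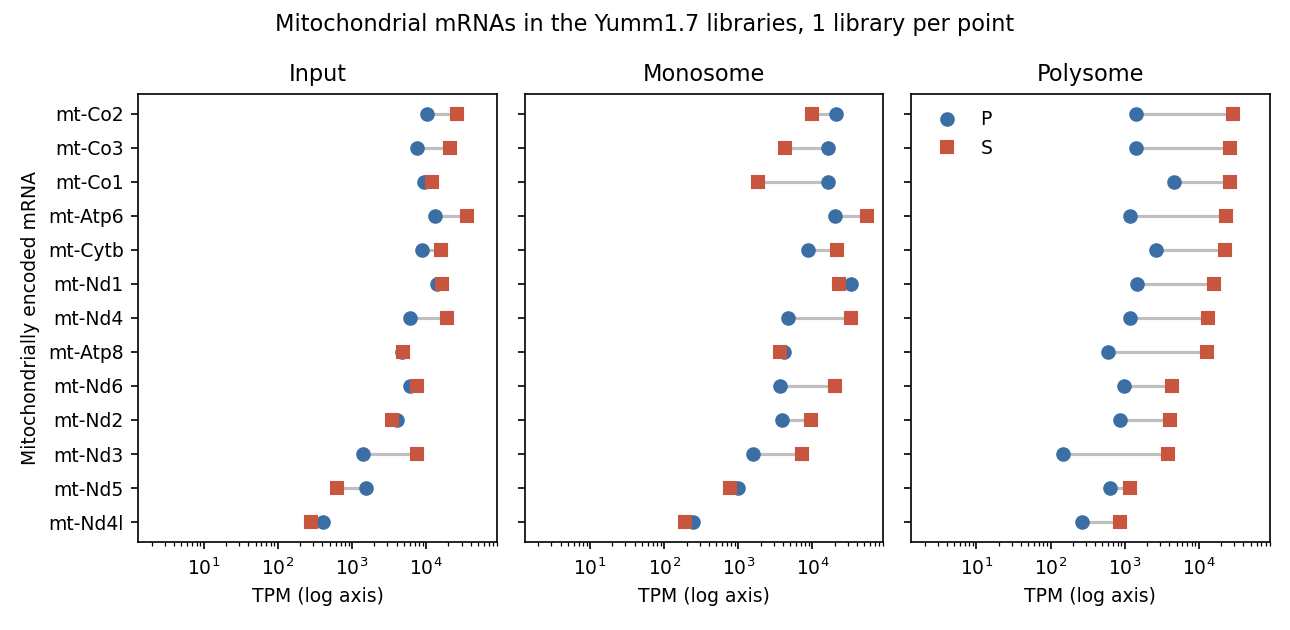
TPM of the 13 mitochondrially encoded mRNAs (log axis) in input, monosome and polysome libraries, with a circle for P and a square for S, 1 library per point. In the polysome panel every S point lies to the right of its P point, from 148 to 3801 TPM for mt-Nd3 and from 1436 to 29315 TPM for mt-Co2.

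Cytosolic ribosomal proteins were the other large block of polysomal mRNA. Their 80 mRNAs took 16.4% of listed TPM in P polysomes and 18.7% in S polysomes. Relative to the median gene, 64 of 80 were at least 2-fold higher in S and none at least 2-fold lower (median 1.47), but as deposited the median was -0.06, so their TPM was nearly equal in both states. In input the share went the other way, from 26.5% in P to 21.2% in S, and in monosomes it went from 34.0% to 18.0%. The P libraries thus differed widely in this share between monosomes and polysomes, whereas the S libraries differed little. Outside mitochondrial genes, their polysome share was 16.8% in P and 24.2% in S.

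The ribosomal protein mRNAs lay within a narrower band than, for example, the respiratory chain subunits described below. Differences ran from 0.08 for Rpl7 (2212 TPM in P and 809 in S) to 2.71 for Rps27 (551 and 1243). The large and small subunits had medians of 1.46 and 1.55 (-0.07 and 0.02 as deposited). High in the range were Rpl38 (1042 and 2126), Rpl24 (2056 and 4083) and Rpl36 (1391 and 2666). Low in it were Rpl4 (2313 and 893) and Rplp0, a protein of the ribosomal stalk (1837 and 769). Rps6, whose protein is phosphorylated downstream of mTOR, had 3108 and 2636 TPM (1.29, or -0.24 as deposited). Reads of ribosomal protein genes can be shared with near-identical pseudogenes, so single members are less certain than the family.

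Other mRNAs that begin, like those of ribosomal proteins, with a 5-prime terminal oligopyrimidine (TOP) tract did not share this position in polysomes. Of 18, 2 were at least 2-fold higher and 4 lower (median -0.33). The nucleolar chaperone Npm1 reached 3159 TPM in P against 181 in S (difference -2.59), the histone chaperone Nap1l1 687 and 52.1 (-2.16), the RNA-binding proteins Hnrnpa1 992 and 93.8 (-1.86) and Ybx1 1471 and 179.7 (-1.49). Elongation factors stood higher than these. Eef1a1 had 6372 and 1787 TPM (-0.30), and Eef2, which moves the ribosome along the mRNA, 1759 and 1108 (0.87, or -0.67 as deposited). The poly(A)-binding protein Pabpc1 had 406 and 84.4 TPM (-0.72). The group took 3.07% of TPM in P polysomes and 1.31% in S polysomes. Its median was -1.18 in input, where that of ribosomal proteins was 0.29.

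**Figure D3:**
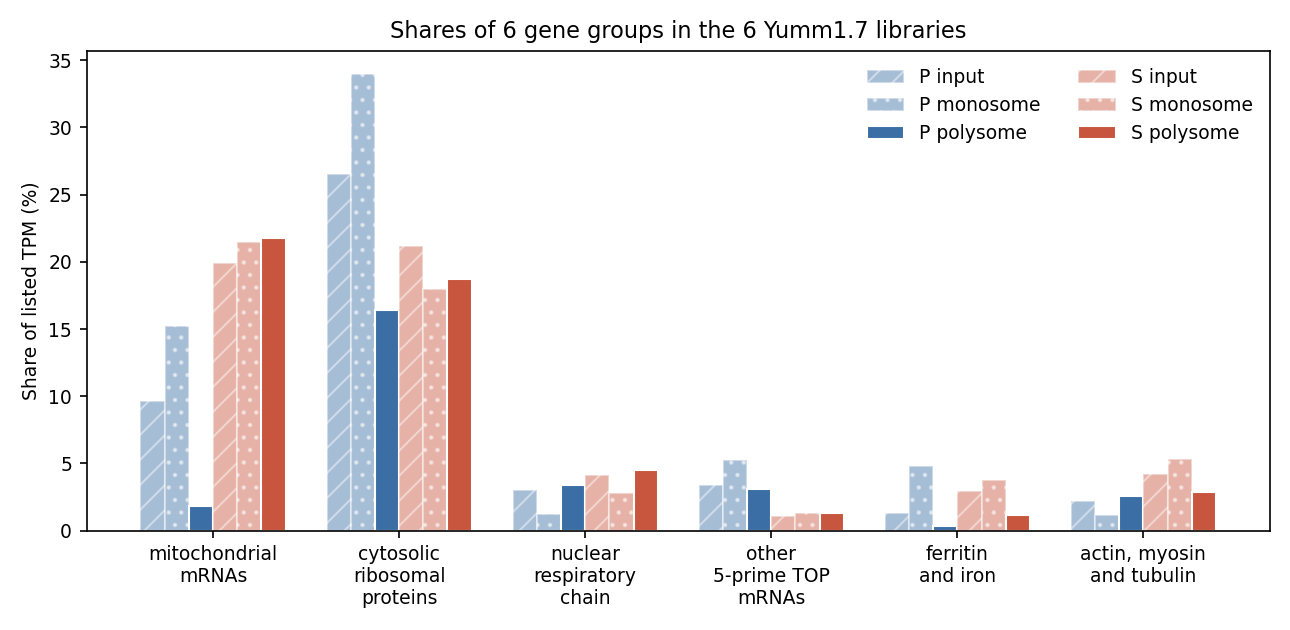
Share of listed TPM (vertical axis, percent) of 6 gene groups in the 6 Yumm1.7 libraries, with blue bars for P, red bars for S and solid bars for polysomes. Mitochondrial mRNAs took 1.84% of P polysomes and 21.8% of S polysomes, while cytosolic ribosomal proteins took 16.4% and 18.7%.

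Initiation factors lay on both sides of the median gene. Of 31 factors, 4 were at least 2-fold higher and 12 at least 2-fold lower (median -0.40). The 3 subunits of eIF2, which brings the initiator tRNA, were all at least 2-fold lower, with Eif2s1 at 213.7 TPM in P and 11.95 in S. The cap-binding protein Eif4e had 129.5 and 8.58 TPM (-2.24), and its inhibitor Eif4ebp1 334 and 86.9 (-0.40). Of 6 eIF4 genes 3 lay at least 2-fold below the median gene and none above. Of 10 eIF3 subunits 2 lay above and 4 below by that much, from the scaffold Eif3a at 173 and 6.58 TPM (-2.98) to Eif3k at 599 and 736 (1.83). The subunit-joining factor Eif5b had the highest difference of the list (59.9 and 140.1 TPM, 2.74). The 5 subunits of eIF2B, the exchange factor for eIF2, had a median of 0.30 (-1.23 as deposited).

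Termination, recycling and tRNA charging lay mostly below the median gene. Of 9 elongation and release factors, 4 were at least 2-fold lower and 1 higher. The lower ones included the release factors Etf1 (168 TPM in P and 15.2 in S) and Gspt1 (125 and 9.75) and the recycling ATPase Abce1 (108 and 3.01). Of 20 cytosolic tRNA synthetases, 6 were at least 2-fold lower and 1 higher (median -0.47). Hars, for histidine, had 180.4 and 8.43 TPM, Iars, for isoleucine, 74.2 and 3.50, and Dars, for aspartate, 114 and 6.93. Mars, for methionine, was at 138 and 83.3 (0.81, or -0.72 as deposited).

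Factors that build ribosomes were lower as a group. In a list of 70 ribosome biogenesis factors, 34 lay at least 2-fold below the median gene and 4 above, with a median of -0.95 in polysomes and -1.25 in input. The helicases Ddx18 (80.8 TPM in P and 2.49 in S) and Ddx21 (133 and 6.87), the pseudouridine synthase Dkc1 (111 and 3.92) and Rrs1 (130.1 and 4.88) had differences from -3.02 to -2.55. The 4 higher ones were Rrp1 (473 and 667 TPM), Ddx49 (52.96 and 67.5), Gnl2 (71.9 and 79.2) and Utp3 (109 and 108, or -0.010 as deposited). Ribosomal protein mRNAs and the mRNAs of the factors that assemble them thus lay on opposite sides of the median gene in these polysome libraries, although both had medians below 0 as deposited (-0.06 and -2.48).

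Nuclear-encoded subunits of the respiratory chain stood with the mitochondrial mRNAs above the median gene. Of 74 subunits, 56 were at least 2-fold higher and 1 lower (median 1.63, and 0.10 as deposited, which is near equal TPM). Complex I was highest, with 32 of 37 subunits at least 2-fold higher, a median of 2.09 (0.55 as deposited) and summed levels of 8837 TPM in P and 14167 in S. Its leading members were Ndufv3 (99.5 and 557 TPM, 4.00), Ndufa13 (206 and 855, 3.58) and Ndufa11 (251 and 865, 3.31). Complex IV had a median of 1.58 (0.05 as deposited) and ATP synthase 1.45 (-0.08 as deposited). Complex III had a median of 1.14 (-0.39 as deposited), and complex II, the only one without a mitochondrially encoded subunit, 0.37 (-1.17 as deposited). Sdhd, an anchor of complex II, was the 1 subunit at least 2-fold lower (288 and 25.4 TPM, -1.92).

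Within complexes the subunits differed from each other. Ndufs1, which carries iron-sulfur clusters in complex I, had 66.3 TPM in P against 13.3 in S (-0.71), against 4.00 for Ndufv3. In ATP synthase, the catalytic subunits Atp5a1 (730 and 179 TPM, -0.49) and Atp5b (2463 and 889, 0.06, or -1.47 as deposited) lay below Atp5k (129 and 366, 3.02) and Atp5h (1006 and 2408, 2.79). Cox4i1, a subunit of complex IV, had 1732 and 3042 TPM (2.34). In input, complex I subunits had a median of 1.06 and ATP synthase subunits 0.32.

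The ribosomes of mitochondria and the proteasome had smaller shifts. Of 78 mitochondrial ribosomal proteins, 28 were at least 2-fold higher and 5 lower (median 0.69, or -0.85 as deposited). They ranged from -2.99 for Mrpl3 (50.1 TPM in P and 1.23 in S) to 2.67 for Mrpl14 (179 and 394). Of 31 proteasome subunits, 12 were at least 2-fold higher and 4 lower (median 0.71, or -0.82 as deposited). The beta ring, which holds the protease sites, had 6 of 7 subunits at least 2-fold higher (median 1.59, 0.06 as deposited), with Psmb5 at 914 and 1231 TPM. The alpha ring had 1 of 7 higher and 2 lower (median 0.38, or -1.15 as deposited), with Psma2 at 180.1 and 19.7 TPM. The immune-type beta subunit Psmb10, in the MHC class I list, had 82.8 and 269 TPM (3.22).

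G2/M genes formed the lowest list. All 30 G2/M genes were at least 2-fold lower in S polysomes (median -3.86), and their summed share of TPM was 0.350% in P and 0.00328% in S. Birc5, a subunit of the chromosomal passenger complex, had 308 TPM in P against 1.07 in S, and the ubiquitin-conjugating enzyme Ube2c 622 and 3.71. The mitotic kinase gene Pbk had 159 and 0.721 TPM (-5.00). Outside this list, the 12 lowest differences of all genes included Pimreg (188 and 0.128 TPM, -5.86) and the chromatin protein gene Hmgb2 (383 and 2.18, -5.39). The mitotic cyclins Ccna2 (121 and 0.279), Ccnb2 (153 and 0.683) and Ccnb1 (170 and 1.57), the kinases Plk1 (149.7 and 1.44) and Cdk1 (201 and 5.77) and the centromeric histone Cenpa (119 and 0.131) were in the same range. The kinetochore gene Nuf2 had 98.2 TPM in P polysomes but a listed value of 0 in S polysomes. In input, all 30 were likewise at least 2-fold lower (median -4.05).

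DNA replication genes were lower with more exceptions. Of 30 G1/S genes, 25 were at least 2-fold lower and 1 higher (median -2.46). The ribonucleotide reductase subunit Rrm2 had 244 TPM in P against 1.10 in S, thymidine kinase Tk1 182 and 2.15, and the helicase subunit Mcm6 114 and 1.45. The sliding clamp Pcna remained the most abundant of them in S polysomes (636 and 34.8 TPM). The 1 higher gene was E2f1, a transcription factor that drives the G1/S programme itself, with 29.2 and 30.2 TPM (1.58, 0.05 as deposited). Thymidylate synthase Tyms (66.8 and 11.7 TPM, -0.89) and the DNA ligase Lig1 (44.5 and 10.8, -0.42) were within 2-fold of the median gene.

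Outputs of the MAPK pathway, through which mutant Braf drives growth, were also low. Of 18 genes, 17 were at least 2-fold lower and none higher (median -2.59). The AP-1 subunit Fosl1 had the lowest difference of all named genes (216 TPM in P and 0.281 in S, -5.87). Cyclin D1, Ccnd1, had 270 and 2.08 TPM, and Myc 116 and 0.801. The feedback phosphatase Dusp6 (49.1 TPM in P) and the factors Etv4 (90.2) and Etv5 (26.2) were listed at 0 in S polysomes. The gene within 2-fold was Ier3, at 146 and 36.8 TPM (-0.43). Mmp3 (337 and 2.61 TPM) and the urokinase gene Plau (186 and 3.99) were the lowest of the matrix proteases.

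Genes listed at 0 were mainly on the S side. In input, 509 of the genes compared were at 0 in S and 28 in P, and in monosomes 188 and 34. The G1/S, G2/M and MAPK lists hold 30, 30 and 18 of the 10492 genes compared. Among the genes compared, 162 were at 0 only in S polysomes, 24 only in P polysomes and 5 in both. Of the 162, 47 had at least 10 TPM in P polysomes, and 7 of these belong to the G1/S, G2/M or MAPK lists. Asf1b (75.2 TPM) and Fbxo5 (55.7) were others, named after their values were seen. A value of 0 in a TPM table with unknown depth does not give a limit on the level.

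**Figure D4:**
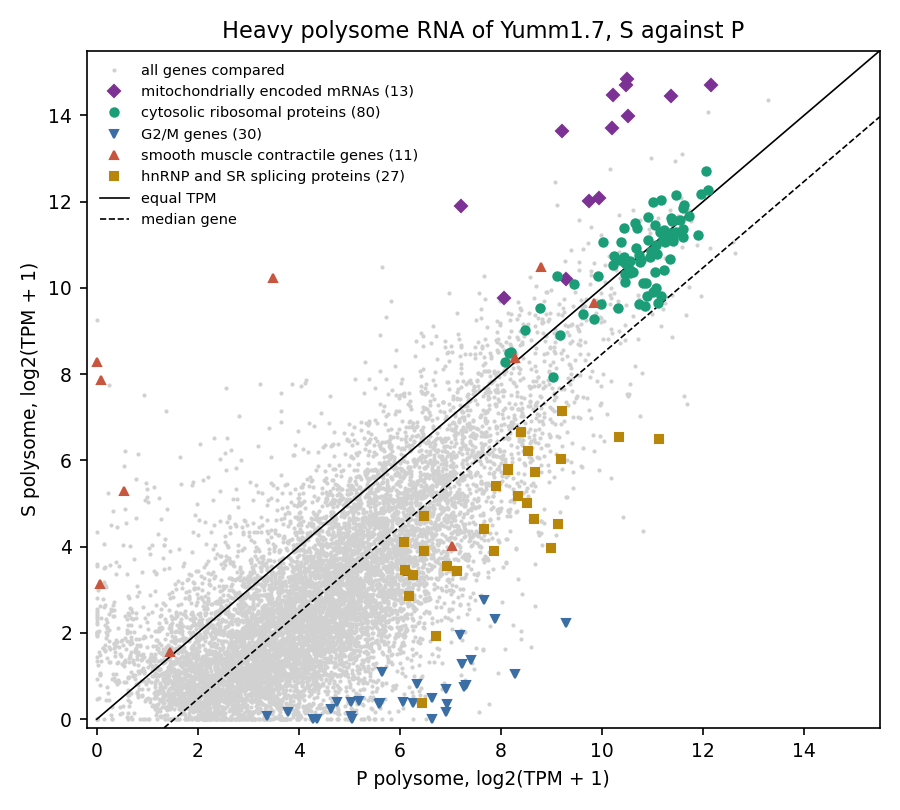
TPM of the 10492 genes in S polysomes (vertical axis) against P polysomes (horizontal axis), both as log2(TPM + 1), with 5 gene groups coloured, a solid line at equal TPM and a dashed line at the median gene. Mitochondrial mRNAs lie above both lines, ribosomal proteins lie around the solid line and above the dashed one, and G2/M genes and splicing proteins lie below the dashed line.

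RNA-binding proteins of splicing were lower without exception in direction. All 27 hnRNP and SR genes had negative differences, 19 of them at least 2-fold (median -1.63). Their share of polysome TPM was 1.07% in P and 0.122% in S. Hnrnpa2b1 had 2236 TPM in P against 89.7 in S, Hnrnph1 510.4 and 14.7, and Hnrnpr 85.2 and 0.308. The SR proteins, which help define exons, included Srsf2 (404 and 23.8) and Srsf1 (138 and 9.75). The 15 hnRNP genes had a median of -1.80 and the 12 SR genes -1.52. They were lower in input as well (median -1.38, 20 of 27 at least 2-fold lower).

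Histone genes divided by type. The variant H2afz, which replaces core histone in chromatin, had 1369.6 TPM in P against 24.7 in S (-4.21), and 4 of 7 variant genes lay at least 2-fold below and none above the median gene (median -1.05). Of 12 replication-dependent histone genes, 10 lay at least 2-fold above the median gene and none as far below (median 2.98, 1.45 as deposited). Hist1h2bc had 59.9 and 377 TPM, Hist1h4h 5.73 and 55.8, and Hist2h2aa1 was listed at 0 in P polysomes (25.5 TPM in P input) and at 612 in S. Messages of this class normally end without a poly(A) tail, and the libraries were selected with poly-T beads. Replication-dependent histone genes also have near-identical copies, so reads may be split between them.

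Stress and nutrient programmes were mixed. Of 25 targets of the transcription factor ATF4, which responds to amino acid shortage, 12 were at least 2-fold lower and 1 higher (median -0.97). Cystathionine lyase Cth had 84.8 TPM in P against 0.645 in S, the folate enzyme Mthfd2 324 and 8.57, and the serine enzyme Psat1 577 and 26.9. Ddit3, which encodes the stress factor CHOP, was the 1 higher gene (131 and 172, 1.92), and Atf4 itself had 591 and 55.2 (-1.86). Of 28 interferon-stimulated genes, 12 were lower and 4 higher by at least 2-fold (median -0.81), from Cxcl10 (45.1 and 0.562) to the tetherin gene Bst2 (1950.4 and 2647, 1.97). Of 25 genes of cholesterol and fatty acid synthesis, 10 were lower and 1 higher (median -0.57), with the isomerase Idi1 at 27.2 and 1.05 TPM.

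Antioxidant genes lay on both sides of the median gene. Of 26, 9 were at least 2-fold higher and 8 lower (median -0.05). Glutathione reductase Gsr (106 TPM in P and 1.78 in S), thioredoxin reductase Txnrd1 (151 and 7.12) and the glutathione synthesis subunits Gclc (22.98 and 0.583) and Gclm (28.9 and 1.47) were among the 8. The 9 higher genes included Sod1 at 1130.4 and 1709 TPM (2.13), Prdx2 at 476 and 953 (2.53) and Gpx4 at 499.7 and 687 (1.99), which act on superoxide or peroxides. The conjugating enzyme Gstm1 had 103 and 475 TPM (3.72). Among chaperones, the mitochondrial Hspd1 (692 and 40.1, -2.54) and Hspa8 (2208 and 3131, 2.04) marked the ends of a list with 3 of 21 higher and 5 lower (median 0.10, or -1.43 as deposited).

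Contractile genes of smooth muscle were among the highest in S polysomes. Of 11 compared, 9 were at least 2-fold higher and 2 lower (median 3.23, 1.695 as deposited). The smooth muscle actin Acta2 had 10.2 TPM in P polysomes and 1194 in S polysomes (8.27), the actin-binding protein Tagln 0.0643 and 233 (9.31), and the enteric actin Actg2 was listed at 0 in P and at 308 in S. Myosin light chain Myl9 had 0.448 and 38.1 TPM, and tropomyosin Tpm2 441 and 1431. Tagln, Actg2 and Myl9 were below 1 TPM in every P library, so they could not count as lower. The 2 lower members were Cald1 (129 and 15.1 TPM, -1.49) and Smtn (70.5 and 9.75, -1.20). The late markers Cnn1 and Myh11 had means below 1 TPM.

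Most genes of both matrix lists lay above the median gene. Of 15 collagens, 11 lay at least 2-fold above the median gene and none as far below (median 2.32, 0.78 as deposited), and of 18 other matrix and matricellular genes 11 were higher and 1 lower (median 2.32, 0.79 as deposited). The fibrillar collagens Col3a1 (40.7 TPM in P and 235 in S) and Col1a2 (21.8 and 81.4) and the beaded-filament collagen Col6a1 (0.489 and 22.3) were among them, and Col1a1 had a mean below 1 TPM. The proteoglycan Ogn had 1.58 and 139.6 TPM (7.30), the matricellular Ccn5 0.170 and 37.0, Thbs1 1.01 and 31.7, and the laminin chain Lamb2 4.92 and 203. Col6a1 and Ccn5 were below 1 TPM in every P library, so they could not count as lower. The 1 lower gene was Spp1, which encodes osteopontin (1722 and 130.4 TPM, -2.18). With it, the list's summed share of polysome TPM went from 0.304% in P to 0.146% in S. That of the collagens went from 0.0382% to 0.0708%. At a mean of at least 5 TPM the median of the other matrix genes was 1.196, below the P level as deposited. Inhibitors and proteases of the matrix went both ways, with 10 of 16 higher and 5 lower. Mmp14 had 193 and 726 TPM and Serpinf1 125 and 942, against the values of Mmp3 and Plau above.

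Markers of fibroblasts were measured beside these groups. Of 10 markers, 6 had a row, with a summed level of 425 TPM in P polysomes and 91.3 in S polysomes. Among the 4 compared, 2 were at least 2-fold higher and 1 lower. Dpt had 0.991 TPM in P polysomes and 34.6 in S, and Dcn was listed at 0 in P and at 2.82 in S. Pdpn had 360.2 and 38.0 TPM and Ly6a 63.1 and 14.9. Pdgfra and Col14a1 had means below 1 TPM. The part of other cells in the contractile and matrix groups was not tested. Markers of other cells were few. Leukocyte markers had a row for 2 of 12, with Cd14 at 15.04 and 0.538 TPM and Fcer1g listed at 0 in S polysomes. The 1 of 8 endothelial markers, Cdh5, had 1.996 and 0.224 TPM, and the 2 of 8 keratinocyte markers summed to 4.13 and 1.66. The 2 of 6 erythroid markers, Hba-a1 and Hba-a2, summed to 0.663 and 3.29 TPM.

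Small heat shock genes held some of the higher single differences. The lens and muscle chaperone Cryab had 49.1 TPM in P against 1438 in S (6.38), and its relative Hspb2 6.04 and 130.3 (5.75). With Hspb6 (12.6 and 42.5, 3.21), 3 of 5 genes in a list of small heat shock genes and their partner Bag3 were at least 2-fold higher. Bag3 itself had 71.4 and 15.6 TPM (-0.59). Among the 12 highest differences of all genes, angiotensinogen, Agt, had 0.189 and 213 TPM (9.02), the methyltransferase Inmt 0.912 and 182 (8.11) and the protease inhibitor Wfdc3 0.453 and 57.7 (6.87). Of 4 genes of the IGF system, the binding proteins Igfbp6 (138 and 680.3) and Igfbp7 (13.5 and 219) were at least 2-fold higher, and the receptor Igf2r (56.03 and 4.47, -1.85) lower. From other lists, the transcription factor Sox4 had 9.57 and 107 TPM (4.88), and the Myc antagonist Mxd4 5.81 and 33.3 (3.87).

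The cytoskeletal, lysosomal and MHC lists had medians above the median gene but below the P level as deposited, while single members went both ways. Of 22 cytoplasmic actin, myosin and tubulin genes, 11 lay at least 2-fold above and 3 below (median 1.07, or -0.46 as deposited). Tubulin isotypes diverged, with Tuba1a at 671 TPM in P and 1893 in S (3.03) and Tubb6 at 1046 and 86.9 (-2.04). In the lysosome list of 32, 14 lay at least 2-fold above the median gene and 3 below (median 0.82, or -0.71 as deposited). The mannosidase Man2b1 (23.8 and 79.6 TPM, 3.23) and Cd68 (75.9 and 4.95, -2.16) marked the ends. Of 12 genes of MHC class I and peptide loading, 4 were higher and 1 lower (median 0.54, or -0.99 as deposited), with H2-K1 at 882 and 125 TPM and H2-T23 at 244 and 365.

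Regulatory lists of growth arrest were less uniform. Of 15 quiescence and antiproliferative genes, 7 lay at least 2-fold above and 1 below (median 0.94, or -0.59 as deposited). The CDK inhibitor Cdkn2c had 79.4 TPM in P against 109 in S (1.98), whereas another, Cdkn1b, had 30.9 and 3.50 (-1.29). Of 12 p53 targets, 2 were higher and 4 lower (median -0.25), and the lower ones included Mdm2, the ubiquitin ligase that degrades p53 (141 and 6.08, -2.79), and the CDK inhibitor Cdkn1a (317 and 43.8, -1.29).

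Some RNAs that are not translated, or whose loading is regulated, were also in the polysome libraries. Ferritin mRNAs carry an iron-responsive element that can block their translation. Ftl1 had 2005 TPM in P polysomes and 8235 in S polysomes (3.57), against 8129.9 and 22315 in input and 28228 and 29414 in monosomes. The heavy chain Fth1 had 1305 and 1715 in polysomes (1.93). Transferrin receptor Tfrc, whose element acts on stability instead, had 23.1 and 2.18 (-1.39). Of 14 noncoding snoRNA host genes, whose spliced transcripts load ribosomes and are destroyed by nonsense-mediated decay, 5 were higher and 2 lower (median 0.63, or -0.90 as deposited). Snhg6 had 51.2 and 58.4 TPM (1.72) and Snhg5 81.4 and 9.70 (-1.41). The signal recognition particle RNAs Rn7s1 (0.466 and 73.3) and Rn7s2 (0.753 and 70.2), 2 near-identical genes, and the nuclear Rn7sk (0.482 and 28.6) were higher in S polysomes.

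**Figure D5:**
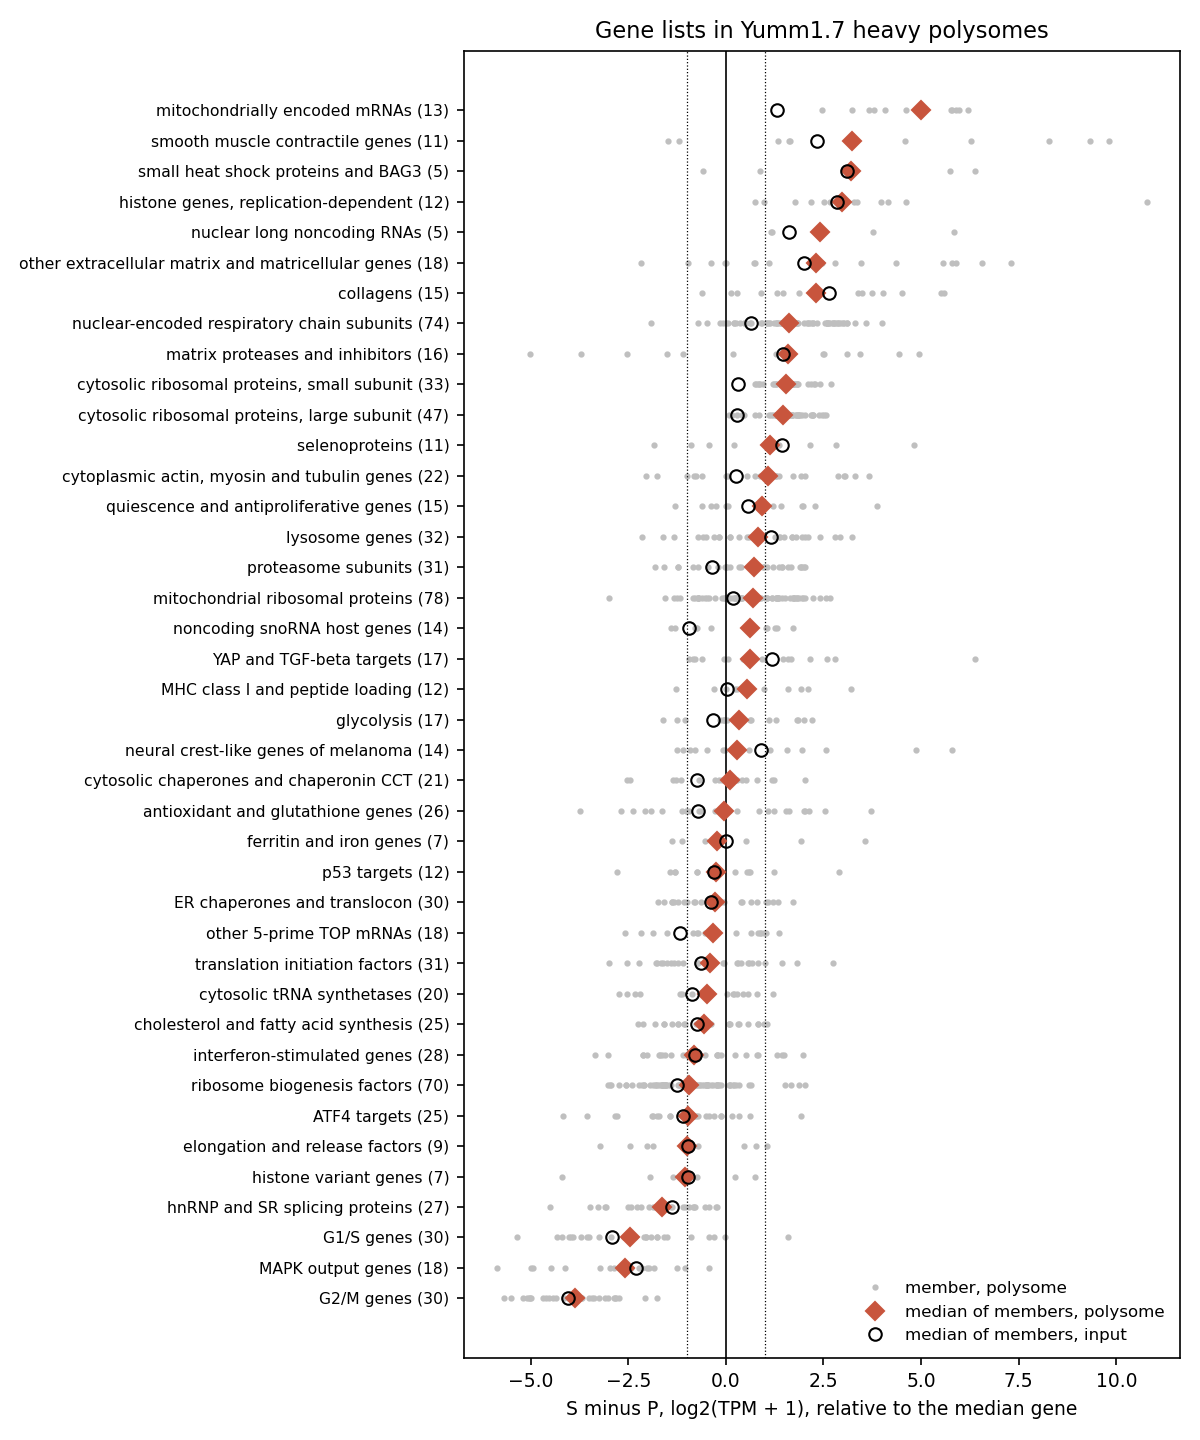
Log2 difference between S and P polysomes relative to the median gene (horizontal axis) for each gene list with at least 5 genes compared. Grey points are genes, diamonds are polysome medians and circles are input medians, with dotted lines at 2-fold. Mitochondrial mRNAs are highest at 5.00 and G2/M genes lowest at -3.86. Lists with medians between 0 and 1.53, such as ribosomal proteins of the large subunit (-0.07 as deposited), are at or below 0 as deposited.

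Most of the polysome difference was also present in input RNA. Of 2422 genes at least 2-fold higher in input (23.1% of those compared) and 2336 lower (22.3%), 1761 and 1618 had the same call in polysomes. That is 69.7% of the polysome genes called higher and 72.7% of the input genes called higher, and 68.6% and 69.3% for those called lower. Opposite calls were rare, with 25 genes higher in polysomes and lower in input and 4 the reverse. Across genes, the differences in polysomes and input had a Pearson r of 0.848, and those in polysomes and monosomes 0.75. These describe 10492 genes of single libraries, and genes are not independent replicates.

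The remainder was found by subtracting the input difference from the polysome difference, which asks whether the polysome share of an mRNA differed beyond its amount in the cell. By this measure 1189 genes (11.3%) were at least 2-fold higher in S and 928 (8.84%) lower. All 13 mitochondrial mRNAs (median 2.86) and 57 of 80 ribosomal protein mRNAs (median 1.23) passed 2-fold towards S and none towards P. So did 29 of 74 respiratory chain subunits (median 0.91), 13 of 31 proteasome subunits (0.88) and 8 of 14 snoRNA hosts (1.28), each with none on the other side. The other TOP mRNAs had a median of 0.80, with 4 of 18 past 2-fold towards S and none towards P. The median over all genes was 0.00. Among proliferation and matrix groups the medians in this measure were 0.14 for G2/M genes, 0.48 for G1/S genes (7 of 30 past 2-fold towards S and 1 towards P), -0.14 for MAPK outputs, 0.14 for collagens and 0.31 for other matrix genes.

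Tpt1, a TOP mRNA, shows how the fractions combined. It had 10019 TPM in P input, 20956 in P monosomes and 3785 in P polysomes, and 2152, 3205 and 2046 in S. The P levels thus differed widely along the gradient, whereas the S levels were close to each other. Single genes at the extremes of the subtraction had unlike values in input. Aarsd1 had 74.6 and 111 TPM in polysomes but 55.2 and 0.362 in input, and Yipf2 and Trex1 were listed at 0 in S input. The mitochondrial tRNA gene mt-Tp had 31.9 and 67.1 TPM in polysomes and 448 and 58.8 in input. At the other end, the arginine methyltransferase Carm1 had 50.3 and 2.53 TPM in polysomes and 42.3 and 50.7 in input, and the exosome subunit Exosc2 81.7 and 1.37 against 41.8 and 12.3. Mmgt2 had 34.8 and 7.51 TPM in polysomes and 5.04 and 19.3 in input, and Nomo1 59.0 and 4.82 against 15.4 and 15.54. Secisbp2l had 12.9 and 2.05 TPM in polysomes against 7.87 and 19.9 in input, and Izumo4 1.69 and 6.53 against 0.536 and 47.5.

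Set side by side as TPM profiles, the P and S polysome libraries had a Pearson r across genes of 0.767 on the log2 scale, and the P and S input libraries 0.773. Each polysome library was closer to its own input, at 0.964 for P and 0.942 for S. Each was also closer to its own monosome library, at 0.888 and 0.919. Each polysome library was thus more like the other libraries of its state than like the polysome library of the other state.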

How the data were processed

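The authors deposited 1 table of TPM for Yumm1.7, with 1 column for each of its 6 libraries. Trizol-LS was used for extraction, per the labels' protocols, mRNA was taken with poly-T beads, and cDNA was primed with random hexamers and amplified by PCR. Per the submitters' processing notes the mouse build was GRCm38 (mm10). For the aligner, quantifier, annotation and strandedness, nothing is given in the sources used here. Depth is unknown from TPM, and the smallest mean listed is 0.1001 TPM.

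Values were compared as log2(TPM + 1), S minus P, less the median over the genes kept (mean of 1 TPM or more), in python 3.11.15 with pandas 2.3.3 and numpy 2.4.6. The added 1 TPM shrinks differences of low genes before centring. Centring then places genes near 0 TPM in both libraries above the median gene. A difference of at least 2-fold was counted. The calculation was tested on simulated data, on genes with at least 10 TPM in P polysomes and with a far smaller pseudocount. That test did not cover low genes or the pseudocount used here. The members and the 48 gene lists were chosen with earlier results of these data known, so no list supports a direction on its own. Sub-complexes were split by gene symbol after the values were seen. Named genes are the 12 highest and 12 lowest differences and the 6 highest and 6 lowest polysome minus input differences whose mean reached 10 TPM. They also include the 12 highest TPM of each polysome library, the 5 largest differences of each list among members whose mean reached 5 TPM, and 17 fixed genes. Other members were named to complete a list. Alternatives were other pseudocounts and filters, no centring, other centring and rescaling without mitochondrial and ribosomal protein genes. A375 libraries were not used. Mouse sequences were not used. Not every gene this rule picks is described, and the values of some are not reported here.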

Additional observations from a re-analysis of the deposited data

How the results depend on the processing

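No paired analysis was possible because each state has 1 polysome library and the labels give no replicate numbers. A value is said to move here when it differs by more than 1.5-fold from the value reported, which is not a test. Without centring (as deposited), the counts at 2-fold were 554 higher and 6827 lower, and 442 and 4674 were so in both polysomes and input. On that scale the list medians were 3.47 for mitochondrial mRNAs, 0.10 for respiratory chain subunits, -3.99 for G1/S, -5.39 for G2/M, -4.12 for MAPK outputs, 0.78 for collagens, 1.695 for smooth muscle and -3.16 for splicing proteins. A turn of direction was counted only for values at least 2-fold from the median gene. By that count, this scale turned ribosomal proteins (-0.062 for both subunits, -0.070 for the large one) and actin, myosin and tubulin genes (-0.46). It also turned selenoproteins (-0.39), Rps6 (-0.24) and Utp3 (-0.010). List medians less than 2-fold above the median gene also fell below 0, such as mitochondrial ribosomal proteins (-0.85) and proteasome subunits (-0.82). With a pseudocount of 5 TPM, 1561 genes were higher, 964 in both polysomes and input, and the medians were -2.91 for G2/M, -1.71 for MAPK outputs, 1.68 for collagens and 2.33 for smooth muscle. With a pseudocount of 0.1 TPM, G2/M stood at -5.34 and MAPK outputs at -4.36. Without genes listed at 0, smooth muscle stood at 2.42. The cause of these shifts was not tested. Outside the as-deposited scale, 0 of 41 list medians and 0 of 210 named genes turned direction by that count. Under at least 1 such setting, 8 and 77 moved. All of these settings were again centred on a median, which leaves little room for a turn of direction. A mean of at least 5 TPM moved 3 list medians: other matrix genes (1.196), replication-dependent histones (3.75) and nuclear long noncoding RNAs (3.86). With that filter the median gene stood at -1.62, so the median of other matrix genes lay below the P level as deposited. Rescaling without mitochondrial and ribosomal protein genes put the median gene at -1.09 in place of -1.53, and gives those genes no value. Unknown depth limits every low value.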

Other observations

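Several gene lists stood outside the groups described above. Of 11 selenoproteins, 7 were at least 2-fold higher in S polysomes and 1 lower (median 1.14, or -0.39 as deposited). Selenom, a redox protein of the endoplasmic reticulum, had 47.6 TPM in P against 477 in S (4.83), and the nucleolar Selenoh 75.8 and 6.39 (-1.85). Of 17 glycolytic genes, 6 were higher and 3 lower (median 0.34, or -1.19 as deposited). Aldolase Aldoa had 2617 and 3607 TPM (1.99), phosphoglycerate kinase Pgk1 1501 and 217 (-1.25), and the glucose transporter Slc2a1 93.8 and 9.77 (-1.61).

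Of 30 genes of endoplasmic reticulum chaperones and the translocon, 5 were higher and 7 lower (median -0.29). The small translocon subunit Sec61g had 274 and 315 TPM (1.73), and the disulfide isomerase Pdia6 408 and 41.6 (-1.73). Of 14 neural crest-like genes of melanoma, 6 were higher and 2 lower (median 0.29, or -1.24 as deposited), with the receptor kinase Axl at 263 and 51.5 TPM (-0.80) and Pdgfrb at 4.82 and 11.0 (2.58). Of 17 YAP and TGF-beta targets, 7 were higher and none lower (median 0.61, or -0.92 as deposited), with the matricellular Ccn1 at 23.6 and 37.2 TPM (2.17) and Ccn2 at 3.18 and 9.03 (2.80). Crygs, Adh1 and Rarres2, named after their values were seen, were listed at 0 in P polysomes and had 10.7, 19.2 and 11.1 TPM in S polysomes.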
